A study of Nicotiana tabacum and Solanum tuberosum subsp. andigenum and Nicotiana sylvestris with 28 samples.

Results

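The 169 cDNA clones described here had more RNA in leaves of potato plants moved to short days (SD) than in leaves of plants kept in long days (LD). They were chosen from a potato cDNA array on which nearly every clone is printed as 2 spots. A spot was taken where it had a value on all 6 potato photoperiod arrays and a mean log2 (LD/SD) of -1 or less over them, that is, at least 2-fold more RNA in SD. Of 14711 spots with 6 values, 302 met this limit, 4 spots whose symbol is a gene name were left out, and the remaining 298 spots belonged to 169 of 8272 clones with 6 values (2.04%). The potato LD/SD values therefore chose the clones, and for potato they are given as a description with no test. The tests are those in antisense PHYB potato and in 3 Nicotiana biotypes, whose arrays took no part in the choice. By their titles, however, the antisense PHYB arrays have wild-type controls with the same names as the LD controls of the potato arrays. Whether these controls shared RNA or plants was not tested, so the antisense PHYB ratios may not be independent of the choice.

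Leaves measure day length through phytochromes and the circadian clock, and signals made in the leaf then set developmental programs elsewhere in the plant. In Andean potato, phytochrome B (phyB), a photoreceptor for red light, holds back tuber formation in LD. Leaves that pass from a lit to a dark period also change their carbon use, since starch stored in the light is broken down at night.

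The potato plants were Solanum tuberosum subsp. andigena, which forms tubers in SD. They grew in LD for 55 or 41 days and then spent 1 or 15 days in SD, against controls kept in LD to day 56, with 3 biological replicates for each time. α-PHYB plants, in which an antisense transgene (a single line, line 10) lowers phyB and which form tubers in either day length, were compared with wild type (WT) in LD, again with 3 replicates. The same transfers were made with Nicotiana tabacum cv Hicks, which flowers regardless of day length, and with its isogenic line carrying the Maryland Mammoth allele (MM), which flowers in SD. N. sylvestris, which flowers in LD, grew in SD and was moved to LD. Each Nicotiana biotype had 3 replicates at 1 day and 3 at 15 days. Lights were on for 16 h a day in LD, at 80 μmol m-2 s-1, and for 8 h in SD, at 160 μmol m-2 s-1, and both were kept at 22 °C. All plants were harvested 14 h after lights on, which by the study's methods left 2 h of light to go in LD and came when SD plants had been dark for 6 h. Day length, irradiance and light or darkness at harvest therefore cannot be told apart in any LD/SD ratio. They do not differ between WT and α-PHYB, since both grew in LD. Potato tissue was leaves and petioles by the methods and leaves by the sample labels.

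Each array carried RNA of a control and of a treated sample with different dyes, and the labels give every array its own pair of RNA samples. By the titles, however, same-numbered arrays of both transfer times name the same control, in potato and in each Nicotiana biotype. Whether these arrays shared control RNA or plants was not tested, so arrays of the same number may not be independent replicates. Ratios are log2 values, so that -1 is 2-fold more RNA in SD (or in α-PHYB) and 1 is 2-fold more in LD (or in WT). The deposit does not state which way its ratios run. Cy3 over Cy5 was taken because some genes named in the paper then have its signs, so the direction is not independent of the paper. LD or WT was in Cy3 on all potato, MM and Hicks arrays but 1, and N. sylvestris carried SD in Cy3. Dye and treatment therefore cannot be told apart within MM, Hicks or WT/α-PHYB. A dye bias of a clone would enter these with the same sign as in the potato ratios that chose it. In N. sylvestris ratios turned to LD/SD it would enter with the opposite sign. The potato arrays had values for 9043 to 9887 clones, the α-PHYB arrays for 8922 to 9118, and the Nicotiana arrays for 3602 to 7333. A ratio array holds no RNA levels, so leaf or petiole markers could not be checked, and fewer cells of a type cannot be told apart from less RNA per cell.

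Most of the 169 clones have no gene name. The probe annotation gives a single locus symbol for 17 of them, several symbols for 1 and none for 151, and no product is paired with the locus numbers in the tables used here. The clones are therefore called by the number of their first spot that met the limit, and no function is given for them. Both spots met the limit for 129 clones and 1 spot for 40. Of the partner spots of those 40, 24 had 6 values, with means up to -0.79. The clones were spread over all 12 blocks of the array, with 9 to 21 in each. The spots just inside the limit had means of -1.0017, -1.0003 and -1.0002 (140038, 160984 and 139782). Those just outside had -0.9985, -0.9985 and -0.9960 (133630, 134301 and 155195), so no gap in the ratios marks the limit.

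In potato, the median of the 169 clone means was -1.29, or 2.44-fold more RNA in SD, and the means ran from -0.94 to -3.77. A clone mean is that of its 2 spots where both had values, so 16 clones lay above -1. Means were -1.5 or less for 57 clones, -2 or less (4-fold) for 18 and -3 or less (8-fold) for 3. Values lay below 0 on all 6 arrays for 167 clones, at -0.5 or less on each array for 146, and at -1 or less on each for 54. The standard deviation of a clone over the 6 arrays had a median of 0.37 and ran from 0.09 to 1.42. Clone 134792 was the most even, between -1.69 and -1.44, and clone 136979 the least, with 0.51, -0.16 and -3.47 after 1 day and -0.71, -2 and -1.40 after 15 days.

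**Figure D1:**
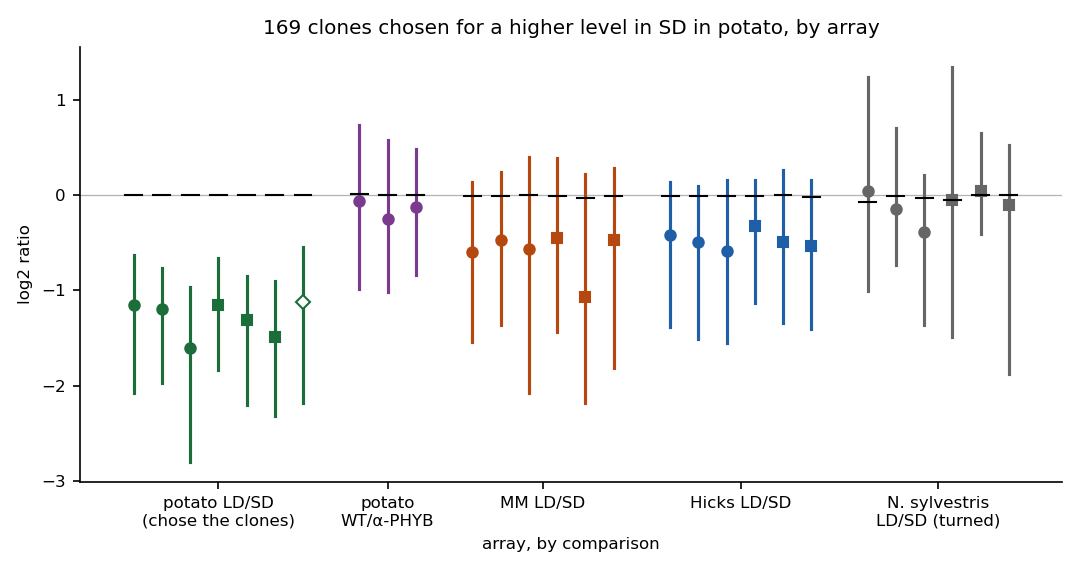
Log2 ratio of the 169 clones on each array (marker, median; vertical line, 10th to 90th percentile), by comparison. Circles are 1 day or WT/α-PHYB, squares 15 days, the open diamond the array with exchanged dyes, and black dashes the median of all clones on that array. Clone medians lie between -1.60 and -1.12 on the potato arrays that chose them and the dye swap, between -1.07 and -0.33 in MM and Hicks, and on both sides of 0 in N. sylvestris.

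The clone with the lowest mean was 148140. Its ratios ran from -5.06 to -2.89 with a median of -3.65, a mean of -3.77 ± 0.82 (standard deviation, n = 6), or 13.7-fold more RNA in SD. Clone 135541 followed with values from -4.64 to -2.65 around a median of -3.41, and clone 161777 with values from -4.64 to -2.48 around -3.23. Their means were -3.42 and -3.34. On the 6 photoperiod arrays the highest value of these 3 clones was -2.48. At such low ratios the steps of the deposited values are wide. Every negative value was log2 of a ratio kept to 2 decimals (steps of 0.01, matched within 0.0015), so neighbouring values differ by 0.029 at a log2 ratio of -1, by 0.14 at -3.32 and by 0.29 at -4.32. Of 1788 potato values of the chosen spots, 35 were at a ratio of 0.10 or less and 8 at 0.05 or less, and the lowest, -5.06, is a ratio of 0.03.

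The median over the 169 clones was -1.34 at 1 day and -1.28 at 15 days. At 1 day 96 clones were more negative and at 15 days 73. The difference of the days (15 days minus 1 day, with the dye-swapped array averaged with its partner) ran from -0.90 to 0.96. It is given with no test, since the arrays of both days chose the clones. Values also differed between replicates at both times. The lowest of a clone's 6 values was on the 1-day replicate 3 for 72 clones and on the 15-day replicate 3 for 39, against 3 for the 1-day replicate 2.

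A single array repeated the RNA of 15-day replicate 1 with the dyes exchanged. It was not used to choose the clones, though it holds the same RNA as an array that was. Of 166 clones with a value there, 165 were below 0, and the exception, clone 142181, had 0.01, against 0.21 on the partner array. The median was -1.12 with exchanged dyes and -1.16 on the partner. Fewer clones reached -1 (95 against 102), and more lay above -0.5 (13 against 5). The difference of the pair divided by 2, a dye term, had a median of 0.03 over the clones and ran from -0.65 to 0.97. Its standard deviation was 0.22, against 0.18 over 8388 clones. With this term subtracted, the potato means of 132 of 166 clones were -1 or less, 157 were -0.8 or less, and the highest was -0.52. Among loci with a symbol, the ratios closest to 0 with exchanged dyes were those of LOC102594176, whose clones 151668 and 155951 had -0.05 and -0.26 with exchanged dyes, against -0.76 and -0.63 on the partner.

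**Figure D2:**
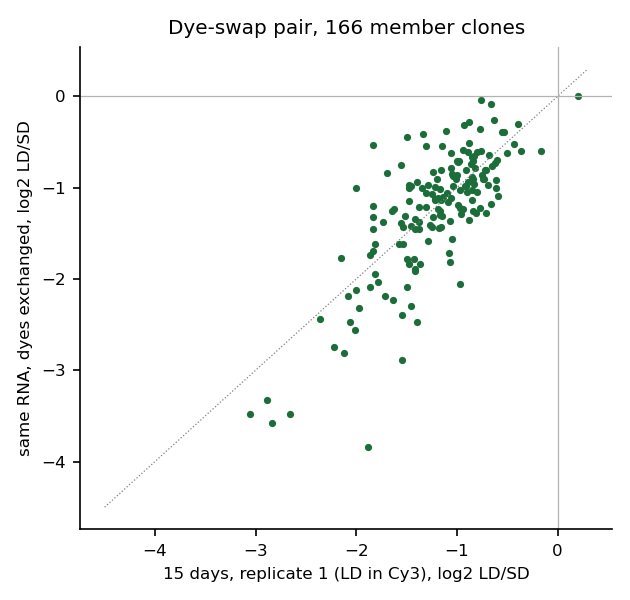
Log2 (LD/SD) of 166 of the 169 clones on 15-day replicate 1 (x axis, LD in Cy3) and on the array of the same RNA with exchanged dyes (y axis); the dotted line marks equal values. All but 1 clone lie below 0 on the y axis, and 95 are at -1 or less.

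The 17 clones with a single symbol belong to 12 loci, and the loci with several clones show how far clones of a gene agree. LOC102590882 had 3 clones, all chosen, with nearly equal means of -1.41, -1.40 and -1.40 (clones 153818, 153953 and 158629). Each was lower in replicates 1 and 2 than in replicate 3, at both times. For clone 153818 the values were -1.86, -1.78 and -0.77 at 1 day and -1.81, -1.38 and -0.83 at 15 days. LOC102601908 had 2 clones, both chosen, with means of -1.16 and -1.05 (155926 and 147399). In each of the next loci 2 of 4 clones were chosen: LOC102577515 with -1.10 and -0.94 (153898 and 160008), and LOC102594176 with -1.02 and -0.96.

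Of the loci with 1 chosen clone, LOC102577576 had the widest spread. Clone 161387 ran from -2.60 to -0.70 around a median of -1.64, with a mean of -1.66 ± 0.77 (standard deviation, n = 6). LOC102591352 had the same mean, -1.66, over a narrower range, -2.19 to -1.10 (clone 148676, standard deviation 0.39). The others had means of -1.34 (LOC102577611), -1.29 (LOC102604230), -1.21 (LOC102587142), -0.98 (LOC102582373), -0.97 (LOC102604938) and -0.95 (LOC102600559). Every value of the 17 clones on the 6 potato arrays lay below 0, which the choice favours. The 12 symbols have 28 clones in all. Of the 11 clones that did not meet the limit, 10 had values, and 9 of the 10 were also below 0, between -0.96 and -0.31. The exception was clone 137128 of LOC102582373 at 0.07, whereas clone 149008 of the same locus was at -0.96. The symbol therefore does not fix the ratio, and whether these clones measure the same transcript was not tested.

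**Figure D3:**
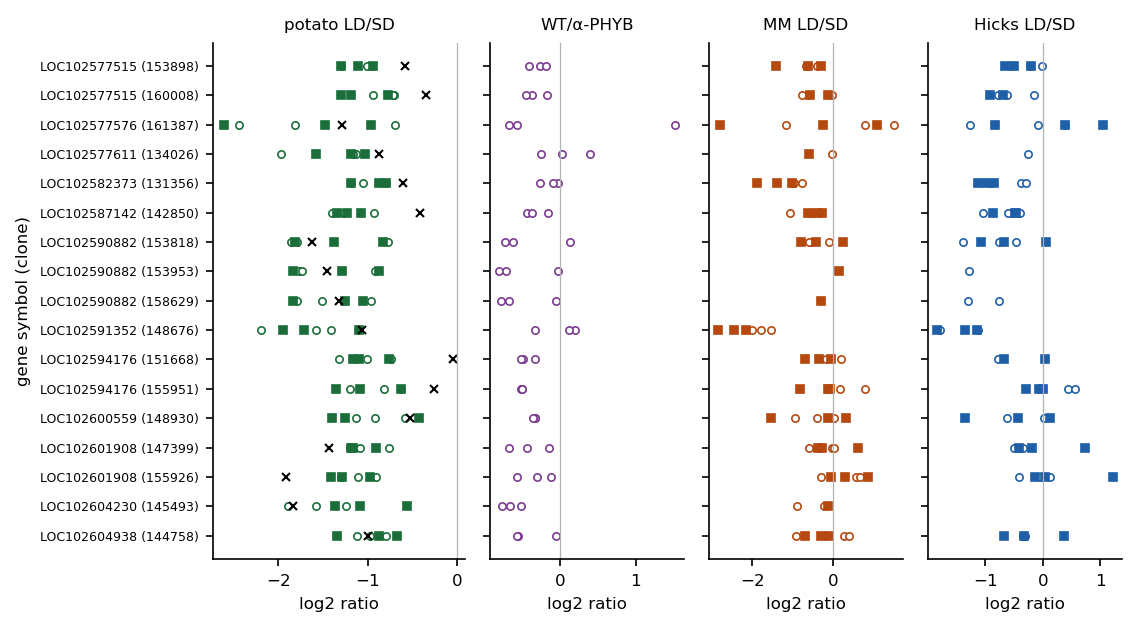
Log2 ratio on each array of the 17 clones with a single locus symbol (y axis) in potato LD/SD, WT/α-PHYB, MM and Hicks (open circles, 1 day or WT/α-PHYB; filled squares, 15 days; crosses, exchanged dyes). All potato points lie below 0; in MM and Hicks, clone 148676 of LOC102591352 lies below -1 and clone 155926 of LOC102601908 on both sides of 0.

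Several unnamed clones also ran close together over the arrays they shared, so the 169 clones may stand for fewer genes than their number. Over 3652 pairs of these clones with at least 20 shared arrays of 27, the mean size of the difference between the values of a pair had a median of 0.67. It was 0.20 or less for 9 pairs. For pairs with the same symbol, which shared as few as 11 arrays, it was between 0.14 and 0.31. Clones 133865 and 159592 differed by 0.17 on average over 25 arrays, clones 139768 and 158852 by 0.20 over 20, and clones 142511 and 147997 by 0.21 over 9. The 9 arrays of the last pair were all of potato LD/SD or WT/α-PHYB, and the former chose the clones. Whether such clones come from the same gene was not tested.

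The comparison of WT with α-PHYB plants in LD asks whether the clones also respond to lower phyB. A value below 0 is a higher level in α-PHYB, the plants that form tubers in LD. The change was small for most clones and leaned towards α-PHYB. Of 154 clones with a value on all 3 arrays, 104 (67.5%) had a mean below 0, against 50.7% of 8463 clones tested, and the median was -0.19 against -0.01. Values were below 0 on every array for 65 clones (42.2%, against 25% of all clones) and above 0 on every array for 24 (15.6%, against 25.2%).

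The test of the mean (p of at most 0.05 and adjusted p of at most 0.1, limma with Benjamini-Hochberg adjustment) was passed by 25 of 154 clones towards α-PHYB (16.2%), against 5.78% of all clones tested. Towards WT 9 passed (5.84%), against 8.19% of all, and 120 did not pass. With a change of at least 2-fold, 6 were higher in α-PHYB (3.90%, against 0.626%) and 1 in WT (0.649%, against 1.77%). These calls rest on few arrays. Without replicate 1 or without replicate 2 the counts were 0 and 0, without replicate 3 they were 17 and 7, and by the methods' t-test the counts with a q-value were 1 and 0. Medians over the 154 clones were -0.06, -0.29 and -0.13 on replicates 1, 2 and 3, with 84, 106 and 106 clones below 0. Of all clones with a value on these arrays, 49.1%, 50.0% and 49.5% were below 0, so the lean was slight on replicate 1.

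The largest change towards α-PHYB was that of clone 148366. It had -1.91, -1.46 and -1.49, a mean of -1.62 (standard error 0.14, n = 3) or 3.08-fold more RNA in α-PHYB, with an adjusted p of 0.0169 in limma. In potato LD/SD its mean was -1.12, so it is among the 3 of 154 clones whose WT/α-PHYB mean was more negative than their LD/SD mean. Clone 134792, the most even of the clones in potato, had -1.25, -1.79 and -1.12 (mean -1.39, 2.61-fold). Clones 142511 and 147997, which ran close together, had -1.20, -1.15 and -2.03 (mean -1.46) and -1.01, -1.22 and -1.97 (mean -1.40). Adjusted p in limma was 0.0278, 0.0313 and 0.0337 for these 3. None of the 4 was tested in a Nicotiana biotype. Clone 153537 had -1.14, -1.60 and -0.42, a mean of -1.05 (adjusted p = 0.0684, limma), and was the only clone called both here and in tobacco.

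Among the loci with a symbol, clones of 2 loci passed towards α-PHYB. Clone 145493 of LOC102604230 had -0.67, -0.77 and -0.52 (mean -0.65, 1.57-fold, adjusted p = 0.0442, limma). Both chosen clones of LOC102594176 passed, at -0.45 and -0.51 (adjusted p of 0.0811 and 0.0577, limma). These are the clones with small ratios on the dye-swapped array. With the dye term subtracted their means were -0.09 and -0.32, and neither passed. The 3 clones of LOC102590882 did not pass and had means of -0.41, -0.52 and -0.51.

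A smaller set ran against the photoperiod ratio, with more RNA in SD than in LD and more in WT than in α-PHYB. These were the 9 of 154 clones that passed towards WT (5.84%), a smaller share than the 8.19% of all clones tested. Clone 158404 had 1.67, 1.06 and 1.04, a mean of 1.26 (2.39-fold more in WT, adjusted p = 0.0306, limma). Clone 148140, with the lowest potato mean of all, had 1.43, 0.74 and 0.75 (mean 0.97, adjusted p = 0.0479, limma). The pair 158852 and 139768 had means of 0.90 and 0.77 (adjusted p of 0.0697 and 0.0543, limma). Of these 4 clones only 158404 reached 2-fold, and none of the 4 passed without replicate 1 or without replicate 2. With the dye term subtracted 139768 passed, 148140 and 158852 did not, and 158404 had no value on the dye-swapped array.

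MM, the tobacco that flowers in SD, had the same direction for most of the clones that gave a signal on the potato array. Of the 169 clones, 78 had a value on all 6 MM arrays, 65 on some and 26 on none, and 71 of the 78 (91.0%) had a mean below 0, against 50.6% of 4355 clones tested. The median was -0.58, against -0.01 over all clones. Every array was below 0 for 45 of the 78 (57.7%, against 9.8% of all clones). The array was made from potato clones, and the 91 others have no tested direction in MM.

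Of the 78, 46 (59.0%) passed the test towards SD, against 9.09% of all clones tested, and 1 towards LD, against 13.5%. With at least 2-fold change, 20 (25.6%) were called higher in SD, against 1.33% of all, and 0 higher in LD, against 1.95% (limma with Benjamini-Hochberg adjustment). At an unadjusted p of 0.05 or less there were 53 below 0 and 2 above, 0 of them 2-fold above. Of all clones tested in MM, 30.6% had such a p in either direction. The 1-day arrays alone gave 1 call and the 15-day arrays alone 17, although the medians were close at the 2 times, -0.57 and -0.60. The number-2 arrays of both days stood apart from the rest over all clones, and correlated at 0.71 between themselves but at -0.15 to 0.29 with the arrays numbered 1 and 3. The median over the 78 clones was -0.82 on them and -0.56 on the rest, and without them 20 clones were called higher in SD and 1 higher in LD.

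The largest ratio in MM belonged to a clone of ordinary size in potato. Clone 158627 ran from -5.06 to -2.13 around a median of -3.42 in MM, a mean of -3.45 (standard error 0.32, n = 6), or 10.9-fold more RNA in SD (adjusted p = 0.00125, limma). In potato it ran from -2.22 to -0.56 with a mean of -1.26, so all but 1 of the potato values were higher than every MM value. Clones 133865 and 159592, the pair that ran close together, had MM means of -2.67 and -2.62, with ranges of -4.19 to -1.29 and -4.06 to -1.26 (adjusted p of 0.00264 for each, limma). Their potato means were almost the same, -2.76 and -2.62.

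Clone 158852 ran from -2.89 to -1.71 in MM (mean -2.32, adjusted p = 0.000615, limma). Clone 148676 of LOC102591352 ran from -2.85 to -1.55 (mean -2.13, 4.39-fold, adjusted p = 0.00105), the largest ratio in MM among loci with a symbol. Clone 131356 of LOC102582373, just past the limit in potato, ran from -1.87 to -0.77 (mean -1.17, 2.26-fold, adjusted p = 0.00307). LOC102587142 and clone 153898 of LOC102577515 passed the test under 2-fold, with means of -0.57 and -0.68 (adjusted p of 0.0223 for each), and neither passed without replicate 3, at -0.67 and -0.78. For other loci the MM values fell on both sides of 0. Clone 161387 of LOC102577576 ran from -2.81 to 1.52 in MM and averaged -0.14, with its negative values on the number-2 arrays and on 15-day replicate 1. Clone 155926 of LOC102601908 ran from -0.30 to 0.87 and averaged 0.34. Neither passed, with adjusted p of 0.880 and 0.213.

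The single clone that passed towards LD was 136640. It was above 0 on all 6 MM arrays, from 0.21 to 1.38, with a mean of 0.90 (adjusted p = 0.0123, limma), and it was below 0 on all 6 potato arrays, from -2.09 to -0.82. It was chosen for mention after its values were seen. For 8 of the 78 clones, 158627, 158852, 148676, 153796, 147582, 131267 and 131356 by a margin and 159592 by less than 0.01, the MM mean was more negative than the potato mean.

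**Figure D4:**
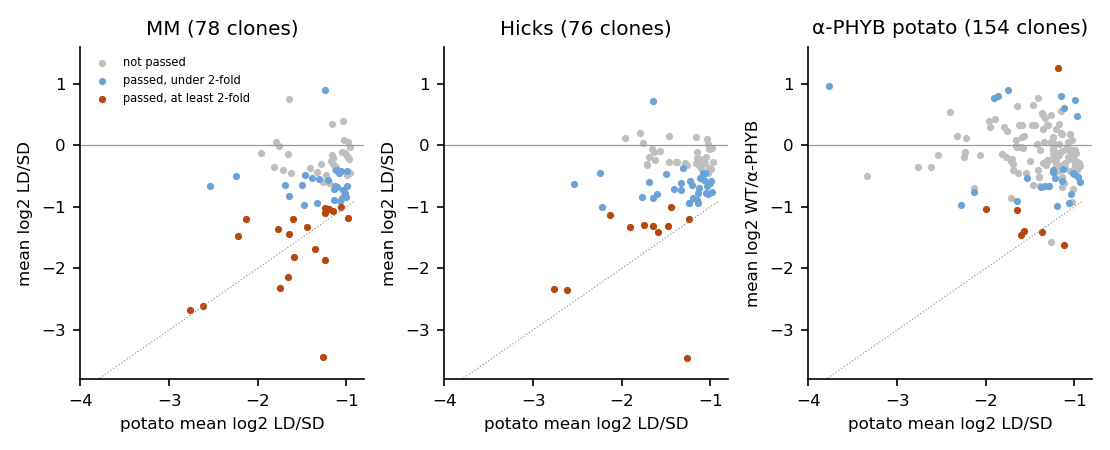
Mean log2 ratio of each tested clone in MM (78 clones), Hicks (76) and WT/α-PHYB (154) against its potato mean log2 (LD/SD), which chose it; the dotted line marks equal values. Blue clones passed limma's test with under 2-fold change and red ones with at least 2-fold. In MM and Hicks 71 and 68 clones lie below 0, and in WT/α-PHYB 104 lie below and the rest at or above 0.

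Hicks, the tobacco that flowers in either day length, had a pattern much like that of MM. Of 76 clones with values on all 6 arrays, 68 (89.5%) had a mean below 0, against 45.6% of 3914 clones tested, and 42 were below 0 on every array (55.3%, against 7.2%), and 0 above 0 on every array, against 6.67%. The median was -0.46, against 0.03 over all clones, with -0.46 at 1 day and -0.50 at 15 days. Towards SD 42 clones (55.3%) passed the test, against 4.83% of all, and towards LD 1, against 4.98%. By at least 2-fold, 11 (14.5%) were called higher in SD, against 0.715%, and 0 higher in LD, against 0.588% (limma with Benjamini-Hochberg adjustment). At an unadjusted p of 0.05 or less there were 50 below 0 and 1 above, 0 of them 2-fold above. Of all clones tested in Hicks, 23.2% had such a p in either direction. The 1-day arrays alone gave 19 calls and the 15-day arrays alone 6, the reverse of the order in MM, a difference that was not tested. Where both spots had to have values, 4 were called.

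Clone 158627 again had the largest ratio. In Hicks it ran from -4.08 to -2.79 around a median of -3.48, with a mean of -3.46 (standard error 0.20, n = 6), or 11.0-fold more RNA in SD (adjusted p = 1.47e-05, limma). Clones 159592 and 133865 followed, with means of -2.35 and -2.33 and values from -3.74 to -1.43 and from -3.74 to -1.32. Clone 153796 ran from -2.06 to -0.76 (mean -1.41, 2.66-fold, adjusted p = 0.00151). Clone 139768 ran from -2.15 to -0.30 (mean -1.32, adjusted p = 0.0128). Clone 158852, which runs close to it, had a mean of -1.30 (adjusted p = 0.0207) and did not pass without replicate 3, at -0.87. The lowest values of these clones in Hicks were on replicate 3 at 1 day, apart from 153796, whose lowest was on 15-day replicate 2, and 158627, whose lowest was on 15-day replicate 3.

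Among loci with a symbol, 3 passed towards SD in Hicks under 2-fold. Clone 131356 of LOC102582373 averaged -0.75 (adjusted p = 0.0133, limma), clone 142850 of LOC102587142 averaged -0.64 (0.0152), and clone 153818 of LOC102590882 averaged -0.72 (0.0368). None of these 3 passed without replicate 3, at -0.66, -0.49 and -0.46, and the last did not pass without replicate 2 either, at -0.79. Clone 148676 of LOC102591352 had 5 values, from -1.84 to -1.12, and could not be tested for want of the 1-day replicate 2. Both clones of LOC102601908 were near 0, at 0.13 and -0.19. The clone that passed towards LD was 140565, with a mean of 0.71 (adjusted p = 0.0801, limma). It was at 0.76 in MM and at -1.65 in potato, and was chosen for mention after its values were seen.

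MM and Hicks differ in flowering response and are isogenic, and their values for these clones lay close together. Of 68 clones tested in both, 43 passed towards SD in MM and 40 in Hicks, and 36 passed in both (83.7% of the MM clones and 90.0% of the Hicks clones). Over all 3466 clones tested in both, 140 passed towards SD in both, which is 39.9% of the MM clones and 79.5% of the Hicks clones. The means had an r of 0.95 across the 68 clones and 0.89 across all 3466 clones with values in both. The points share the clones, not the RNA. MM was more negative in 47 of 68, and the difference (MM minus Hicks) had a median of -0.09, from -1.02 to 0.35. The largest difference in size was that of clone 158852, with -2.32 and -1.30. The test of the difference was passed by 0 of the 68 and by 0% of all clones in either direction (limma with Benjamini-Hochberg adjustment). At an unadjusted p of 0.05 or less there were 5 below 0 and 0 above, against 2.51% of all clones in either direction. The standard error of the difference had a median of 0.24 and reached 0.61, so differences of a size like those seen were not detectable for many single clones.

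Of the 25 clones that passed towards α-PHYB, 10 were tested in MM and 9 in Hicks, and 8 passed towards SD in each (80.0% and 88.9%). Of all the chosen clones tested in the same pair of comparisons, 59.0% passed towards SD in MM and 55.3% in Hicks. Over all clones the shares of those passing towards α-PHYB were 17.6% and 12.8%. The others gave too few values in tobacco. Of the 9 that passed towards WT, 2 were tested in MM and 3 in Hicks, and 1 and 2 passed towards SD. Clone 158852 is the clearest of these, with 0.90 in WT/α-PHYB and -1.74, -2.32 and -1.30 in potato, MM and Hicks LD/SD. Clone 158404, at 1.26 in WT/α-PHYB, had 5 MM values, from -2.13 to -1.01, and 4 Hicks values, from -2.03 to -0.29, and was not tested there.

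The direction of the N. sylvestris ratios is not settled. The channel descriptions put SD in Cy3 and the sample titles say the opposite, and arrays of the same orientation ran against each other over all clones, with r as low as -0.42 (15-day replicate 1 with 1-day replicate 2). The ratios were turned to LD/SD by the channel descriptions, and the count with the sign turned back is given too. Of 44 clones with values on all 6 arrays, 21 had a mean below 0 (47.7%, against 49.7% of 2314 clones tested). The median was 0.02, and those of the single arrays over the 44 clones were 0.33, -0.32 and -0.47 at 1 day and 0.34, 0.13 and -0.07 at 15 days. With the sign turned back the median is -0.02. Values were below 0 on every array for 6 clones (13.6%, against 10.9% of all) and above 0 on every array for 4 (9.09%, against 4.8%).

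Towards SD 6 of 44 passed the test, against 5.83% of all clones, and towards LD 3, against 2.64%. By at least 2-fold, 4 were called towards SD (9.09%, against 0.691%) and 1 towards LD (2.27%, against 1.12%), and without turning the ratios 1 and 4. Without replicate 3 both counts were 0. The replicate number as a random block also gave 0 and 0, and so did turning back only the arrays numbered 1, which was tried after seeing the data. The 4 clones towards SD were all called in MM as well. Clone 131267 ran from -2.71 to -0.80 (mean -1.91, adjusted p = 0.0297, limma), clone 133865 from -3.39 to -0.07 (mean -1.56, 0.0863), clone 158627 from -3.22 to 0.35 (mean -1.53, 0.0912), and clone 143530 from -2.13 to -0.43 (mean -1.24, 0.0655). The clone called towards LD was 161387 of LOC102577576, above 0 on all 6 arrays from 0.12 to 2.12 (mean 1.35, adjusted p = 0.0655, limma), against a potato mean of -1.66. Clones 133865 (-1.86 to -1.19), 158627 (-1.69 to -1.19), 143530 (-1.27 to -1.06) and 161387 (1.20 to 1.42) lost the call whichever 15-day array was left out, and clone 131267 lost it without 15-day replicate 3, at -1.84. With the sign turned, each of these means keeps its size and changes its sign.

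The difference between MM and N. sylvestris was tested for 42 clones. It passed below 0 (lower LD/SD in MM) for 17 (40.5%), against 10% of all clones, and above 0 for 1 (2.38%), against 15.1%. By at least 2-fold there were 7 below 0 (16.7%), against 2.72%, and 0 above, against 5.63%. For Hicks and N. sylvestris 15 of 41 passed below 0 (36.6%), against 6.15%, and 0 above, against 10.6%. By at least 2-fold there were 8 (19.5%), against 1.72%, and 0, against 4%. At an unadjusted p of 0.05 or less 21 clones were below 0 and 1 above in the first, and 19 below and 2 above in the second. Of those above, 0 were so by 2-fold. Of all clones tested, 30.8% and 27.2% had such a p in either direction. These shares rest on the turned N. sylvestris ratios. By the channel descriptions Cy3 held LD in MM and Hicks and SD in N. sylvestris. A dye bias therefore does not cancel in the turned differences and cannot be told apart from biotype there. Not turned, 16 of 42 passed below 0 in the first (38.1%, against 8.62% of all clones) and 1 above (2.38%, against 7.82%), and 16 of 41 below 0 in the second (39.0%, against 4.93%) and 2 above (4.88%, against 6.05%). By at least 2-fold there were then 11 below 0 (26.2%, against 2.28%) and 0 above (against 4.51%) in the first, and 10 below 0 (24.4%, against 1.68%) and 1 above (2.44%, against 3.35%) in the second. Turning back was added after seeing the data. Clone 153796 had the smallest adjusted p of those named, with -1.81 in MM, -1.41 in Hicks and -0.15 in N. sylvestris (differences of -1.66 and -1.27, adjusted p of 0.000421 and 0.0233, limma). Its N. sylvestris values ran from -0.46 to 0.36 and did not overlap those of MM or Hicks. Its small ratio there is nearly the same size with either sign.

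Across the 4 comparisons that took no part in the choice, 140 of the 169 clones (82.8%) were called in none, 19 (11.2%) in 1, 6 (3.55%) in 2 and 4 (2.37%) in 3. Of all 8272 clones with 6 potato values the shares were 96.0%, 3.30%, 0.604% and 0.109%. All 4 comparisons could be tested for 41 clones and none of them for 15. The 4 clones called in 3 comparisons were 133865, 158627 and 131267, each in MM, Hicks and N. sylvestris, and 153537, in MM, Hicks and WT/α-PHYB. The N. sylvestris calls rest on ratios of unsettled direction and were lost with the random replicate block or without replicate 3. The WT/α-PHYB call of 153537 was lost without replicate 1 or without replicate 2. Clone 131267 ran from -1.95 to -0.62 in potato (mean -1.24), from -2.73 to -1.38 in MM (mean -1.86) and from -1.95 to -0.11 in Hicks (mean -1.19). Clone 153537 ran from -2.0 to -1.07 in potato, from -2.15 to -0.39 in MM and from -1.92 to -0.38 in Hicks, with means of -1.65, -1.43 and -1.30. In MM it did not pass without replicate 3, at -1.24. Of these 4, 153537 alone was below 0 on every array of potato, α-PHYB, MM and Hicks.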

How the data were processed

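Leaf RNA was hybridized with 2 colours to 28 potato cDNA arrays of TIGR (27 biological replicates and 1 dye swap). The deposited values are log2 ratios, which the authors had normalized within arrays by LOWESS. Scanner intensities were not used here, and how the deposited rows were filtered is not given in the sources used here. The labels' processing notes name limma. The 2 spots of a clone were found from the probe annotation (905 annotated pairs, all within 15360 pairs of the layout; median r of a pair 0.890 per array) and averaged. The annotation names 1810 probes, 1630 of them with 1 symbol.

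Each comparison's mean ratio was set against 0 by limma 3.58.1 (lmFit, then eBayes; R 4.3.3), over all clones with a value in every replicate, two-sided; Nicotiana biotypes were compared by the difference of their means. Passing meant p of at most 0.05 and a Benjamini-Hochberg adjusted p of at most 0.1, and a call also a mean of at least 1 in size, which are the limits of the methods, there used with a t-test and a q-value. The planned test of the difference between the days in potato is not reported, since its arrays chose the clones. The clones and lists were chosen with earlier results of these data known. Named were all clones with 1 symbol, the 5 with the lowest potato mean, up to 5 called per comparison and direction, those called in 3 comparisons, and those at the limit. The planned functional lists were not run, since no product is paired with the locus symbols, and no clone sequences were used.

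Same-numbered arrays of the 2 days deviated together in potato (r of 0.41, 0.15 and 0.45 for replicates 1, 2 and 3), MM (0.54, 0.75 and 0.51) and N. sylvestris (0.86, 0.72 and 0.60). In Hicks they did so for replicates 1 and 3 but not for replicate 2 (0.31, -0.07 and 0.32). By their titles, same-numbered arrays of both days also name the same control. The p-values of all Nicotiana biotypes may therefore be too low. Other settings tried were the t-test, other limits, centring, scaling, missing values, both spots required, the dye term, single days, replicate blocks and each replicate left out. The number of arrays limits the precision. On simulated data with 200 changed clones, the fits were checked before use.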

Additional observations from a re-analysis of the deposited data

Results flagged for a closer look

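In 96 groups of 6 arrays, 7 had a highest or lowest value whose gap to the others passed the 95% limit of Dixon's test, which chance alone would give in about 1 in 20 groups. In potato, clone 142511 was at -0.25 on 1-day replicate 2, with the other 5 arrays between -2.36 and -1.58. In MM, the median over the clones was -1.07 on 15-day replicate 2, with the others between -0.60 and -0.45; clone 153898 was at -1.42 on the same array, with the others between -0.68 and -0.31. Clone 153796 was at -0.79 on MM 1-day replicate 2, with the others between -2.12 and -1.84. In Hicks, 15-day replicate 2 stood above the others for clones 155926 (1.23, others -0.41 to 0.12), 147399 (0.73, others -0.49 to -0.18) and 144758 (0.37, others -0.68 to -0.30).

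The test of the difference between biotypes called 7 clones for MM minus N. sylvestris and 8 for Hicks minus N. sylvestris, all below 0. Of the clones named in the text, the first held 153796 (-1.66, adjusted p = 0.000421), 158627 (-1.92, 0.0371), 160984 (-1.24, 0.000539) and 131356 (-1.19, 0.00192), by limma with Benjamini-Hochberg adjustment. The second held 161387 (-1.41, 0.0533), 153796 (-1.27, 0.0233), 158627 (-1.93, 0.0438) and 160984 (-1.01, 0.0268), by the same test. With the N. sylvestris ratios not turned, 7 of these 8 differences stayed below 0 and that of 161387 was 1.29 (adjusted p = 0.0707). Of the 7, those of 160984 no longer passed, at -0.45 for MM and -0.22 for Hicks (adjusted p of 0.144 and 0.592, limma).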

How the results depend on the processing

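The direction of the deposited ratios, the dyes and the few arrays limit these values, and clones without values on an array have no measured direction there. Of the values recomputed for single clones, 1348 kept their direction and their side of the threshold, 170 lost a pass, 8 moved by more than the spread of replicates and 1 reversed: clone 142850 in WT/α-PHYB, which did not pass as reported, was at 0.14 with the dye term subtracted. Of the counts and medians, 216 stayed close and 75 moved. The cause was not tested.

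In WT/α-PHYB, counts called towards α-PHYB and WT were 1 and 0 for the methods' t-test and its q-value, 0 and 0 with Benjamini-Hochberg, 25 and 9 with no size limit, and 10 and 3 with arrays scaled to 1 spread; towards WT 0 were left with both spots past the limit and 0 with the dye term subtracted, since the only clone called, 158404, has 1 spot past the limit and no value on the dye-swapped array. In MM 46 were called towards SD and 1 towards LD with no size limit, and 1 towards SD from 1 day alone. In Hicks 42 and 1 were called with no size limit, and towards SD 4 with both spots needed, 19 from 1 day and 6 from 15 days.

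In N. sylvestris, counts towards SD were 2 by the t-test with a q-value, 1 with Benjamini-Hochberg, 1 at an adjusted p of 0.05, 1 with both spots needed, 2 with 1 replicate missing, 2 with the dye term subtracted, 0 from 1 day, 0 with a random replicate block, 1 with arrays not turned and 0 with the arrays of number 1 turned back. Towards LD they were 0 by the t-test with Benjamini-Hochberg, 0 at 0.05, 3 with no size limit, 2 with centred arrays, 0 with both spots needed, 0 from 1 day, 5 from 15 days, 0 with a random replicate block, 4 not turned and 0 with number 1 turned back. For MM minus N. sylvestris 18 differed with no size limit and 11 with arrays not turned. For Hicks minus N. sylvestris 15 differed with no size limit, 4 at an adjusted p of 0.05 and 11 with arrays not turned.

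With the replicate number as a block, MM had 20 calls towards SD and Hicks 11, as without it. N. sylvestris had 4 towards SD and 2 towards LD in place of 4 and 1, and no other count changed by over 1.5 times. This block takes the differences between replicate numbers out of the error. It therefore cannot show whether p-values are too low because same-numbered arrays deviate together. With a random block N. sylvestris had 0 and 0, and such counts are not given here for MM and Hicks. WT/α-PHYB has a single group, so its replicate numbers pair no arrays within it. They do match the control names of the potato arrays in the titles. Over all clones, potato 1-day replicate 1 had r of 0.49, 0.51 and 0.14 with α-PHYB replicates 1, 2 and 3. For 1-day replicate 2 these were 0.28, 0.45 and 0.31, and for 1-day replicate 3 they were 0.08, 0.30 and 0.40. For 15-day replicate 1 they were 0.31, 0.49 and 0.33, and for 15-day replicate 2 they were 0.30, 0.48 and 0.29. For 15-day replicate 3 they were 0.08, 0.19 and 0.44. The effect of shared controls was not tested. With each replicate left out in turn, counts towards α-PHYB were 0 to 17 and towards WT 0 to 7. MM had 17 to 24 towards SD and 0 to 1 towards LD, Hicks 8 to 15 towards SD, and N. sylvestris 0 to 4 in each direction. MM minus N. sylvestris had 4 to 10 and Hicks minus N. sylvestris 2 to 9. Medians were -0.29 to -0.16 in WT/α-PHYB, -0.63 to -0.53 in MM, -0.55 to -0.47 in Hicks and -0.20 to 0.11 in N. sylvestris.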
